A study of Mus musculus with 14 samples.

Results

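Hepatic stellate cells (HSCs), the vitamin A-storing cells that line the liver sinusoids and turn into matrix-producing myofibroblasts when they are cultured on plastic, were treated with valproic acid (VPA) for 4 h, and their transcripts were compared with those of untreated cells collected at the same time. The comparison rests on 6 of the 14 arrays of the series, 3 of VPA-treated cells (VPA4h) and 3 of controls (Ctrl4h), which are all arrays whose labels name the 4 h time point. It covers the 21789 of 35557 probe sets that are paired with exactly 1 gene symbol, and these stand for 19938 symbols. All groups were primary HSCs of BalbC mice (Balb/cByJ in the study's methods), for which the labels name no genetic modification and neither age nor sex, grown in DMEM with 10% fetal bovine serum. Unattached cells were washed off 2 h after seeding and VPA (2.5 mM) was added at that point, so that the 4 h run from the wash. The study describes the replicates as separate HSC isolations. Controls received no VPA and the labels name no vehicle. The other groups used here are controls after 16 h (Ctrl16h, n = 2) and 64 h (Ctrl64h, n = 3) and cells kept with VPA for 64 h (VPA64h, n = 3). Ctrl4h cells have already attached to plastic and are no freshly isolated cells.

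VPA is a branched short-chain fatty acid used against epilepsy that inhibits class I histone deacetylases. These enzymes remove acetyl groups from lysines of histone tails and other proteins, and they work as catalytic subunits of large corepressor complexes such as SIN3, NuRD and CoREST. Acetyl groups are added by acetyltransferase complexes such as NuA4, whose catalytic subunit is Kat5, and are read by proteins with bromodomains or YEATS domains. In cultured HSCs, deacetylase inhibitors are known for holding back the change towards the myofibroblast.

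Values are log2 RMA values, which the authors made by correcting the background, giving all arrays the same distribution and summarising the probes of a probe set. A change shared by most transcripts is therefore not visible, and a difference tells only how a gene moved against the rest. The tested probe sets had array medians between 6.34 and 6.41 on all 14 arrays. Over all tested probe sets, arrays of 1 group at 4 h correlated at 0.9935 to 0.9951 and arrays of opposite groups at 0.9814 to 0.9835. Of 13 measured HSC markers, 10 were above the 75th percentile on all 6 arrays and 1, Gfap, was below the median on all 6. The average log2 value over the HSC markers was 9.76 to 9.88 on the Ctrl4h arrays and 9.86 to 10.0 on the VPA4h arrays. The same average was 5.87 to 6.24 and 5.7 to 6.21 for 20 hepatocyte markers, 5.76 to 6.13 and 5.59 to 6.04 for 20 Kupffer cell and macrophage markers, 6.61 to 6.77 and 6.51 to 6.76 for 20 sinusoidal endothelial markers, and 5.17 to 5.31 and 5.07 to 5.29 for 14 lymphocyte markers, beside array medians of 6.29 to 6.36 over single-symbol probe sets. None of these markers, nor any of 15 markers of cholangiocytes, mesothelium and portal fibroblasts, passed both limits below. The endothelial markers Esam (0.69), Gpr182 (0.36) and Emcn (-0.49) had an adjusted p under 0.05 and less than a 2-fold change, Gpr182 with 0.0539 when replicates were blocked within each time point. In a bulk sample, fewer cells of a type and less RNA per cell cannot be told apart.

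A probe set was called risen or fallen at a limma adjusted p under 0.05 and a change of at least 2-fold, that is 1 on the log2 scale. By this rule 201 of 21789 probe sets (0.922%) rose and 129 (0.592%) fell in VPA4h, 330 or 1.51% in all. Most changes were close to the limit: 189 of the risen and 121 of the fallen probe sets changed 2- to 3-fold, 12 rose and 8 fell by more than 3-fold, and 1 rose and 2 fell at least 4-fold. Just inside the limit stood Mgat5 at 1.002 and Slc41a2 at -1.001, and just outside it Lonrf3 at 0.9991 and Gtf3c3 at -0.9984. With the adjusted p as the single limit, 2600 probe sets (11.9%) were higher and 2245 (10.3%) lower. Below, rose and fell are used of called genes, and higher and lower of genes that passed the adjusted p alone. Counts of gene lists are to be read beside the shares over all genes, with 1 probe set a gene. These were 0.973% risen and 0.627% fallen, and 12.2% higher and 10.3% lower. The 3 arrays of the treated cells lay above all 3 controls for 16.7% of probe sets and below them for 17.1%. Groups without overlap thus made up 33.8% of all probe sets, and 201 of the 201 risen and 127 of the 129 fallen ones.

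**Figure D1:**
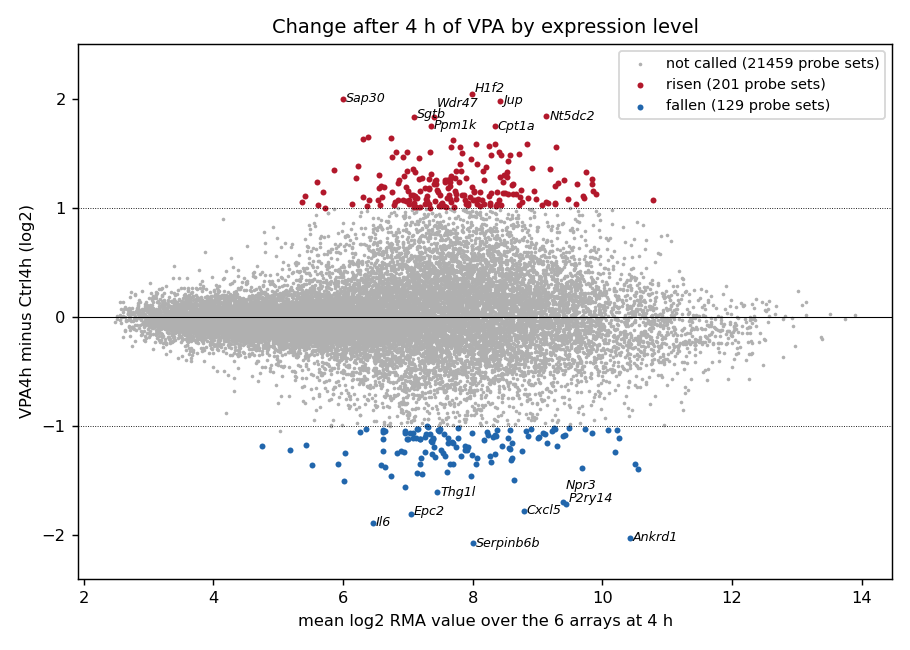
Each point is 1 probe set with exactly 1 gene symbol, placed by its mean log2 RMA value over the 6 arrays at 4 h (horizontal) and by the difference VPA4h minus Ctrl4h (vertical, log2). Red points rose and blue points fell, the dotted lines mark a 2-fold change, and the 8 largest rises and falls are named. Called probe sets lie at middle and high levels, and few at a mean value under 6.

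The largest rise was in H1f2, the gene of linker histone H1.2, which binds the DNA between nucleosomes. Its log2 values were 7.27, 6.43 and 7.20 on the Ctrl4h arrays and 9.12, 8.78 and 9.11 on the VPA4h arrays, a difference of 2.04 ± 0.19 (SE, 3 against 3 arrays; limma adjusted p = 1.35e-06). The groups did not overlap, and the lowest treated array stood above the highest control by more than the controls differed among themselves. Sap30, a small subunit that stabilises the SIN3 deacetylase complex, was near the low end of the scale in controls, with values of 4.92, 5.12 and 4.94 on the Ctrl4h arrays and 6.65, 7.16 and 7.17 on the VPA4h arrays, and rose by 2.0 ± 0.16 (adjusted p = 2.76e-07). Jup encodes plakoglobin, a linker of cell junctions to the cytoskeleton, and had 7.40, 7.31 and 7.61 on the Ctrl4h arrays and 9.42, 9.45 and 9.39 on the VPA4h arrays, a rise of 1.98 ± 0.09 (adjusted p = 1.07e-08). In both genes every treated array was higher than every control.

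Several of the other large rises were in metabolic genes. Cpt1a, the carnitine palmitoyltransferase that sets the rate of mitochondrial fatty acid uptake, had 7.48, 7.38 and 7.55 on the Ctrl4h arrays and 9.21, 9.20 and 9.24 on the VPA4h arrays and rose by 1.75 ± 0.09 (adjusted p = 1.07e-08). Elovl5, an elongase of polyunsaturated fatty acids, had 7.98, 8.18 and 7.96 on the Ctrl4h arrays and 9.64, 9.66 and 9.57 on the VPA4h arrays and rose by 1.58 ± 0.09 (adjusted p = 2.16e-08). Ppm1k, the mitochondrial phosphatase that activates breakdown of branched-chain keto acids, had 6.67, 6.35 and 6.44 on the Ctrl4h arrays and 8.45, 8.16 and 8.10 on the VPA4h arrays, a rise of 1.75 ± 0.12 (adjusted p = 8.46e-08). The replicates of these 3 genes were tight, and treated and control arrays were far apart. Suox, the mitochondrial sulfite oxidase, rose by 1.64 ± 0.10, with 5.77, 6.02 and 5.95 on the Ctrl4h arrays and 7.44, 7.59 and 7.64 on the VPA4h arrays.

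The remaining genes among the 15 largest rises were Chaf1b, a subunit of the assembly factor that places histones on replicated DNA, Bace1, the beta-secretase that cleaves amyloid precursor protein, Slc9a3r1, a scaffold protein under the plasma membrane, Wdr47, which acts on microtubules, Sgtb, a co-chaperone, Strbp, an RNA-binding protein, Nt5dc2 and Fam126b. Chaf1b had 5.66, 5.11 and 5.90 on the Ctrl4h arrays and 7.21, 7.43 and 6.98 on the VPA4h arrays, with scattered controls, and rose by 1.65 ± 0.17 (adjusted p = 3.56e-06). Bace1 had 7.50, 7.58 and 7.57 on the Ctrl4h arrays and 9.13, 9.14 and 9.14 on the VPA4h arrays, values that hardly differed within a group, and rose by 1.58 ± 0.09 (adjusted p = 2.16e-08). Nt5dc2 rose by 1.84 ± 0.11, Wdr47 by 1.83 ± 0.09, Sgtb by 1.83 ± 0.16, Fam126b by 1.62 ± 0.10 and Slc9a3r1 by 1.58 ± 0.11, with adjusted p between 1.07e-08 and 7.98e-07. Strbp rose by 1.63 ± 0.09 on the probe set with the higher level, while its other probe set was at 0.51 with an adjusted p of 0.170. No array of the treated cells overlapped with a control in any of the 15 genes, which was a condition for naming them.

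**Figure D2:**
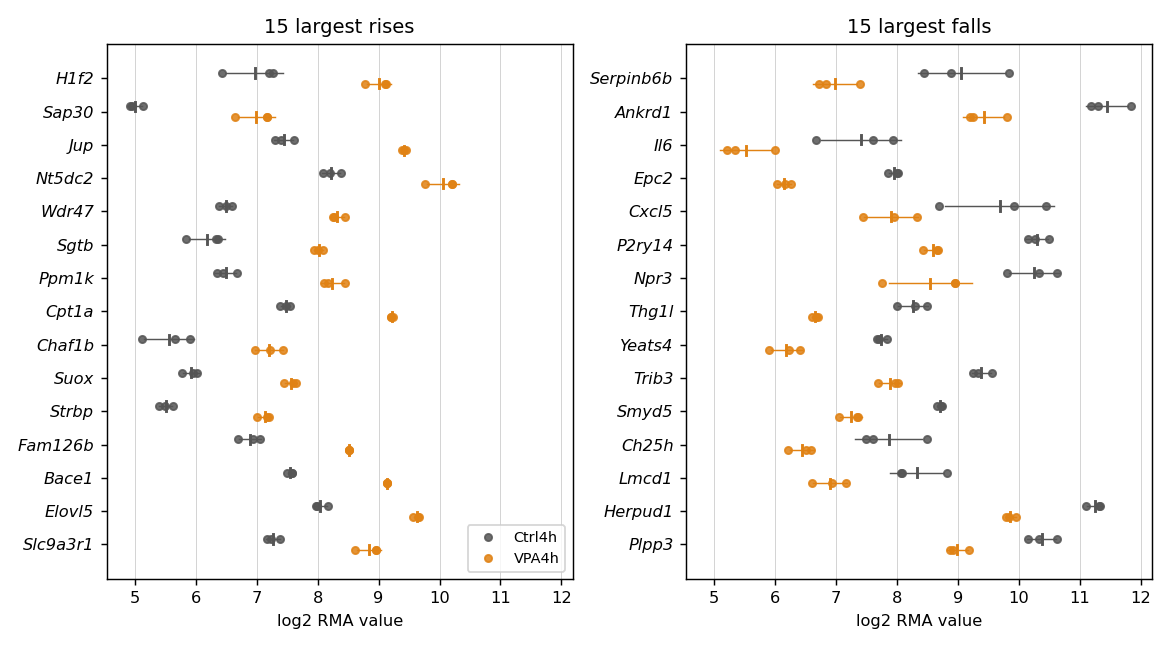
Log2 RMA values of the 15 genes with the largest rise (left) and the 15 with the largest fall (right) after 4 h. Each dot is 1 array, grey for Ctrl4h and orange for VPA4h, with the group mean as a vertical tick and the SD as a horizontal line. The groups are apart in all 30 genes, which is part of how they were chosen, and Serpinb6b, Cxcl5 and Il6 have the most scattered controls.

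The largest fall was in Serpinb6b, a member of the serpin family of protease inhibitors. It had 9.83, 8.89 and 8.44 on the Ctrl4h arrays and 7.38, 6.82 and 6.72 on the VPA4h arrays, a difference of -2.07 ± 0.27 (adjusted p = 3.01e-05). The lowest control stood above the highest treated array, which was a condition for naming the largest falls. The controls themselves ranged over more than 1 log2 unit. Ankrd1, an ankyrin repeat protein of muscle and a target of the mechanosensitive coactivator YAP, was among the bright genes of the array, with 11.84, 11.30 and 11.19 on the Ctrl4h arrays and 9.81, 9.25 and 9.20 on the VPA4h arrays, and fell with a difference of -2.02 ± 0.18 (adjusted p = 9.80e-07). Il6, a cytokine of the acute phase, had 7.93, 6.67 and 7.61 on the Ctrl4h arrays and 5.33, 5.21 and 6.0 on the VPA4h arrays, a difference of -1.89 ± 0.31 (adjusted p = 0.000249). Control replicate 2 was the lowest control for Il6 and, as the same condition requires, was above the highest VPA4h array.

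Receptors and signalling genes followed. P2ry14, the receptor of UDP-glucose, had 10.27, 10.49 and 10.14 on the Ctrl4h arrays and 8.42, 8.66 and 8.68 on the VPA4h arrays and fell with a difference of -1.72 ± 0.13 (adjusted p = 2.05e-07). Npr3, the clearance receptor of natriuretic peptides, had 9.80, 10.62 and 10.33 on the Ctrl4h arrays and 7.75, 8.95 and 8.94 on the VPA4h arrays and changed by -1.70 ± 0.26 (adjusted p = 0.000126), with replicate 1 lowest in both groups. Plpp3, a phosphatase of lysophosphatidic acid and other lipid phosphates, changed by -1.38 ± 0.13, Lmcd1, a LIM domain cofactor, by -1.42 ± 0.23, and Ch25h, which makes 25-hydroxycholesterol, by -1.43 ± 0.24. The groups did not overlap in any of these 5 genes, which was again a condition for naming them. Thg1l, the enzyme that adds the guanylate to histidine tRNA, had 8.48, 8.29 and 8.01 on the Ctrl4h arrays and 6.59, 6.70 and 6.67 on the VPA4h arrays and fell with a difference of -1.60 ± 0.11 (adjusted p = 9.27e-08). Smyd5, a protein of the SET and MYND family of lysine methyltransferases, changed by -1.46 ± 0.10.

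Genes that remove, add or read acetyl groups were examined next, from lists of deacetylases with their corepressors and of acetyltransferases with bromodomain readers. Of 27 measured deacetylase and corepressor genes 2 rose and none fell, and 9 were higher and 3 lower by adjusted p alone. The median change was 0.17, beside -0.03 over all genes. The 2 that rose were Sirt7, a sirtuin of the nucleolus (1.07 ± 0.08, adjusted p = 2.51e-07), and Sin3a, the scaffold of the SIN3 complex (1.02 ± 0.08, adjusted p = 2.19e-07). Both were close to the limit, Sirt7 at 0.99 after another quantile normalisation, and Sin3a at 0.996 when centred on housekeeping genes, 0.999 after another quantile normalisation and 0.96 without VPA4h replicate 3. Hdac1 was higher by 0.93, Chd4, the motor of NuRD, by 0.93, Hdac6 by 0.81 and Hdac5 by 0.74. Of 20 acetyltransferase and bromodomain genes none rose, 1 fell, 4 were higher and 7 lower, with a median of -0.14. The one that fell was Kat5, which had 8.22, 8.21 and 8.12 on the Ctrl4h arrays and 6.95, 7.14 and 7.11 on the VPA4h arrays, a difference of -1.11 ± 0.09 (adjusted p = 5.52e-07). Kat2a, the acetyltransferase of SAGA, was lower by 0.90, and Hat1, which acetylates new histone H4, was higher by 0.84.

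When the members of single chromatin complexes were listed, a choice made after the values of the single genes had been seen, the subunits of SIN3 and those of NuA4 and SRCAP lay on opposite sides of 0. Of 21 measured SIN3 subunits 4 rose, none fell, 14 were higher and 1 lower, with a median of 0.48. Besides Sap30 and Sin3a these were the DNA-binding subunits Arid4a and Arid4b. Arid4a had 7.53, 7.36 and 7.53 on the Ctrl4h arrays and 9.12, 9.0 and 9.0 on the VPA4h arrays, a rise of 1.57 ± 0.09 (adjusted p = 2.16e-08), and Arid4b rose by 1.07 ± 0.09, or 0.99 after another quantile normalisation. The treated arrays were above the controls in all 4. Centred on housekeeping genes 3 of the 4 passed the 2-fold limit, and after another quantile normalisation 2 of them, Sap30 and Arid4a. The plant homeodomain subunits Ing1 and Ing2 were higher by 0.81 and 0.74, and Brms1l was the 1 lower subunit, at -0.46.

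Of 21 measured subunits of NuA4 and SRCAP, which acetylate histone H4 and H2A and exchange H2A for H2A.Z, none rose, 5 fell, 1 was higher and 12 were lower, with a median of -0.56. The scaffold Epc2 had 8.02, 7.99 and 7.85 on the Ctrl4h arrays and 6.03, 6.16 and 6.26 on the VPA4h arrays, a difference of -1.81 ± 0.10 (adjusted p = 3.55e-08). Yeats4, the YEATS domain reader shared by both complexes, had 7.70, 7.84 and 7.67 on the Ctrl4h arrays and 5.90, 6.41 and 6.23 on the VPA4h arrays, a difference of -1.56 ± 0.11 (adjusted p = 9.21e-08). The highest VPA4h array was more than 1 log2 unit below the lowest control in both genes. Ing3 fell with a difference of -1.25 ± 0.08 and the ATPase Srcap with -1.18 ± 0.12, Kat5 being the fifth. The paralogue Epc1 was lower by 0.85, and the ATPase Ruvbl1 by 0.90. All 5 calls held under both other scalings. H2az1 and H2az2, which encode the H2A.Z that SRCAP deposits, were higher by 0.59 and 0.81.

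In the other complexes fewer genes passed. Mbd3 of NuRD fell (-1.11 ± 0.09), while 6 of 15 NuRD and CoREST genes were higher and 3 lower. Ino80c fell (-1.28 ± 0.09) among 10 measured INO80 genes, with 1 higher and 4 lower. In SWI/SNF, Bcl7b (-1.31 ± 0.08) and the core subunit Smarcb1 (-1.03 ± 0.09) fell, and of 23 genes 4 were higher and 7 lower, with the ATPase Smarca2 higher by 0.88 and its alternative Smarca4 lower by 0.58. Ing5 fell (-1.18 ± 0.09) among 33 subunits of the MOZ, HBO1, MSL and SAGA complexes, of which 3 were higher and 15 lower, with a median of -0.18. Smarcb1 was at -0.98 without VPA4h replicate 1.

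**Figure D3:**
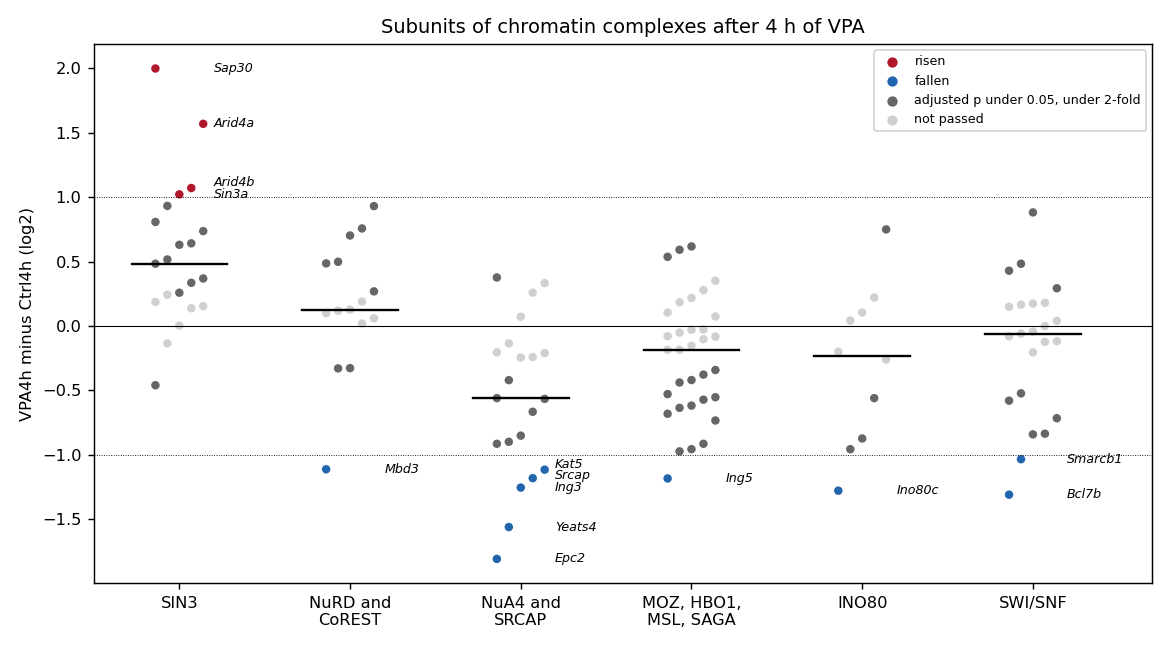
Difference VPA4h minus Ctrl4h (log2) of the measured subunits of 6 sets of chromatin complexes. Each point is 1 gene, red or blue where it rose or fell, dark grey where the adjusted p alone passed and light grey otherwise, with a black line at the median of the set. The median is 0.48 for SIN3 and -0.56 for NuA4 and SRCAP, and those of the other 4 sets lie between -0.23 and 0.13.

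Among 12 linker and replacement histone genes, H1f2 was the 1 that rose. In all 7 were higher and none lower, with a median of 0.45. H1f3, H1f5 and H1f1 were higher by 0.65, 0.57 and 0.36. Linker histone genes are closely related copies of each other, so probes may be shared between them, and the values of single genes are uncertain for that reason. Of 16 genes of P-TEFb and transcription elongation 1 fell, Larp7, the protein that binds the 7SK RNA which holds P-TEFb inactive. It had 8.58, 8.60 and 8.38 on the Ctrl4h arrays and 7.43, 7.45 and 7.47 on the VPA4h arrays, a difference of -1.06 ± 0.10 (adjusted p = 1.45e-06), and its other probe set fell with -1.06. Hexim1, the protein that inhibits P-TEFb within the same particle, was lower by 0.27 (adjusted p = 0.0380, or 0.0555 with replicates blocked within each time point). By adjusted p alone 3 of the 16 genes (18.8%) were higher and 4 (25%) lower, beside 12.2% and 10.3% over all genes. The median of the 16 was 0.00175. In the Integrator complex, which cleaves nascent RNA and was listed after its values had been seen, Ints7 fell (-1.27 ± 0.08) among 16 genes, with 1 higher and 5 lower.

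Genes that restrain the cell cycle were on the higher side. Of 21 measured cyclin-dependent kinase inhibitors, cyclins and growth arrest genes 1 rose and none fell, 12 were higher and 2 lower, and the median was 0.35. The gene that rose was Cdkn2d, the inhibitor p19 of the kinases Cdk4 and Cdk6. It had 6.51, 6.26 and 6.84 on the Ctrl4h arrays and 7.74, 8.03 and 7.63 on the VPA4h arrays, a rise of 1.26 ± 0.15 (adjusted p = 1.36e-05), without overlap. Cdkn2c and Cdkn1b, inhibitors of the same kinases and of Cdk2, were higher by 0.86 and 0.75, and the retinoblastoma genes Rb1 and Rbl2 by 0.79 and 0.72. The same list holds cyclins, and Ccne1, Ccnd3 and Ccnd1, which drive entry into S phase, were higher by 0.95, 0.87 and 0.50. Cdkn2b was lower by 0.43. Of 24 DNA replication and mitosis genes none was called, 6 were higher and none lower. The 6 were Mcm4, Mcm6, Mcm2 and Mcm7 of the replicative helicase, its loader Cdt1, and Rrm1 of ribonucleotide reductase. Mcm4 had 6.98, 6.84 and 6.86 on the Ctrl4h arrays and 7.91, 7.89 and 7.74 on the VPA4h arrays, a difference of 0.95 ± 0.08, and Mcm6 of 0.92 ± 0.08, just under 2-fold and without overlap.

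Among 18 p53 targets Trp53inp1, an autophagy-linked regulator, rose by 1.14 ± 0.09 (adjusted p = 3.78e-07), with 6 higher and 4 lower. Of 16 BCL2 family genes Bcl2l11, which encodes the proapoptotic protein Bim, rose by 1.06 ± 0.12, with 5 higher and 1 lower. Bik and Bmf, of the same BH3-only class, were higher by 0.65 and 0.45. Bcl2l11 was under 2-fold at 0.99 without Ctrl4h replicate 2 and 0.98 without VPA4h replicate 1, both in unpaired fits. Between arrays of the same number its changes were 1.04, 1.08 and 1.05. Of 17 clock genes Cry1, a repressor of the clock, rose by 1.01 ± 0.11, close to the limit, and was at 0.98 when centred on housekeeping genes, 0.93 after another quantile normalisation, 0.89 without Ctrl4h replicate 1, 0.92 without VPA4h replicate 2 and 0.98 without VPA4h replicate 3. Per1 and Cry2 were higher by 0.97 and 0.87.

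Genes of the amino acid stress response followed. Of 25 genes of the amino acid response, which the factor Atf4 drives when amino acids are short, and of the NRF2 antioxidant response, none rose and 5 fell. By adjusted p alone 2 were higher and 16 lower, and the median was -0.48. Asns, the asparagine synthetase, had 11.36, 11.10 and 11.07 on the Ctrl4h arrays and 9.91, 9.77 and 9.82 on the VPA4h arrays, a difference of -1.34 ± 0.09 (adjusted p = 1.02e-07). Trib3, a pseudokinase that dampens the same response, had 9.56, 9.33 and 9.25 on the Ctrl4h arrays and 7.68, 8.02 and 7.97 on the VPA4h arrays, a difference of -1.49 ± 0.12 (adjusted p = 2.56e-07). Neither gene had a treated array within 1 log2 unit of the lowest control. Chac1, which degrades glutathione, changed by -1.09 ± 0.15, Slc7a11, the cystine transporter, by -1.04 ± 0.24, and Nqo1, a quinone reductase, by -1.04 ± 0.22. All 3 depended on single arrays for the 2-fold limit, with Chac1 at -0.93 without Ctrl4h replicate 1, Slc7a11 at -0.78 without Ctrl4h replicate 1 and -0.81 without VPA4h replicate 2, and Nqo1 at -0.91 without VPA4h replicate 1. Atf4 itself was lower by 0.54. In the unfolded protein response list of 23 genes 1 fell, Herpud1, which works in the degradation of misfolded proteins of the endoplasmic reticulum, with 11.31, 11.34 and 11.10 on the Ctrl4h arrays and 9.79, 9.95 and 9.84 on the VPA4h arrays and a difference of -1.39 ± 0.09 (adjusted p = 6.65e-08). Of the rest 5 were higher and 3 lower, among them Xbp1 at -0.50 and Ddit3 at 0.44.

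Of 26 genes of MYC and ribosome biogenesis none was called, but 3 were higher and 15 lower, with a median of -0.40. Myc had 11.85, 11.55 and 11.64 on the Ctrl4h arrays and 10.89, 10.59 and 10.99 on the VPA4h arrays, a difference of -0.85 ± 0.14 (adjusted p = 0.000211), under 2-fold and without overlap. Polr1a, the largest subunit of RNA polymerase I, had 9.31, 9.06 and 9.16 on the Ctrl4h arrays and 8.17, 8.11 and 8.39 on the VPA4h arrays, a difference of -0.95 ± 0.10. The 3 that were higher, Mxi1, Mxd1 and Max at 0.51, 0.46 and 0.29, are the binding partner of MYC and antagonists that compete for it. Among 8 measured genes for Trmt112 and the methyltransferases it activates, listed after their values had been seen, N6amt1 (-1.35 ± 0.14) and Thumpd3 (-1.14 ± 0.11) fell and none was higher. Trmt112 was lower by 0.93 on its brighter probe set, and another of its probe sets fell with -1.44.

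The Mir17hg locus, which MYC is known to drive, gives rise to a cluster of microRNAs that includes miR-17, and its members were listed after their values had been seen. The array measures the gene of the hairpin, not the mature arms, and the hairpins lie inside the host transcript, so that host and hairpin cannot be told apart. Of 305 probe sets of microRNA genes none rose and 4 fell, 3 of them from this cluster, beside 0.922% risen and 0.592% fallen over all probe sets. By adjusted p 1 was higher and 15 lower, both smaller shares than the 11.9% and 10.3% over all probe sets. The mature sequences are shown because the members of the cluster measured here, which do not include Mir92-1, carry 3 different seeds. In RefSeq annotation of GRCm38.p6 the measured hairpins span chr14:115043671-115044391 on the plus strand, and all 5 hairpins as well as the host gene were lower. Capitals mark the seed, bases 2 to 8, which is the stretch that pairs with target messages.
mmu-miR-17-5p: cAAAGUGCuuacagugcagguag
mmu-miR-20a-5p: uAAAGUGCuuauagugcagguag
mmu-miR-18a-5p: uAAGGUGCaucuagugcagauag
mmu-miR-19a-3p: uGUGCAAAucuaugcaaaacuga
mmu-miR-19b-3p: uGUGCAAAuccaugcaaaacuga
mmu-miR-125b-5p: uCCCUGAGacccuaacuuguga

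miR-17 and miR-20a share the seed AAAGUGC, and miR-18a has the seed AAGGUGC. Mir20a had 7.09, 6.30 and 6.40 on the Ctrl4h arrays and 5.34, 4.83 and 5.60 on the VPA4h arrays, a difference of -1.34 ± 0.30 (adjusted p = 0.00372), and Mir17 was lower by 0.53. Mir18 had 7.19, 6.42 and 6.70 on the Ctrl4h arrays and 5.40, 4.68 and 5.73 on the VPA4h arrays, a difference of -1.5 ± 0.35 (adjusted p = 0.00440). Treated and control arrays did not overlap in either, but replicates scattered more than for most messages. Mir19a and Mir19b-1, which share the seed GUGCAAA, changed by -1.19 ± 0.27 and -0.85, and Mir19a was at -0.91 without Ctrl4h replicate 1. The host gene Mir17hg was lower by 0.55. The fourth microRNA gene that fell was Mir125b-1 on chromosome 9, outside the cluster and with another seed, at -1.18 ± 0.28 (adjusted p = 0.00555).

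Of 24 chemokines none rose and 2 (8.33%) fell, beside 0.973% risen and 0.627% fallen over all genes. These were Cxcl5 and Cxcl3, which attract neutrophils. Cxcl5 had 10.44, 9.92 and 8.69 on the Ctrl4h arrays and 8.32, 7.94 and 7.45 on the VPA4h arrays, a difference of -1.78 ± 0.32 (adjusted p = 0.000520). Cxcl3 had 10.13, 8.87 and 7.90 on the Ctrl4h arrays and 8.26, 7.78 and 7.09 on the VPA4h arrays, a difference of -1.26 ± 0.39 (adjusted p = 0.0265), and here control replicate 3 lay below the highest treated array. Its call was lost in 7 of 26 alternatives, with -0.68 without Ctrl4h replicate 1, -0.95 without VPA4h replicate 3, -1.31 without Ctrl4h replicate 2 and -1.29 without VPA4h replicate 2 among them. Some of the 26 could hardly lose the call. Leaving out a 16 h or 64 h array keeps the log2 value, and a lower fold limit cannot remove a call. In both genes replicate 1 was the highest and replicate 3 the lowest of each group. Cxcl1 and Cxcl2, of the same family, had differences of -0.14 ± 0.30 and 0.15 ± 0.50 with adjusted p of 0.837 and 0.898, and changed sign with the replicate left out. Between arrays of the same number the changes were -0.0904, -0.0312 and -0.298 for Cxcl1 and 0.143, 0.184 and 0.139 for Cxcl2. For Cxcl3 they were -1.87, -1.1 and -0.815. Its limma adjusted p was 0.0136 with the replicate block over all groups and 0.000288 with it within each time point. Of 32 cytokine, NF-kB and adhesion genes Il6 fell and Nfkbie, an inhibitor of NF-kB, rose by 1.13 ± 0.14 (adjusted p = 1.60e-05) and was at 0.98 without Ctrl4h replicate 3. Between arrays of the same number Nfkbie changed by 0.963, 1.25 and 1.17. In the list of 32 genes 5 (15.6%) were higher and 3 (9.38%) lower, beside 12.2% and 10.3% over all genes. Among them were the IL-6 family cytokine Lif at -0.79, the NF-kB subunit Relb at -0.66 and the adhesion molecule Icam1 at 0.56. Of 29 interferon response and antigen presentation genes none was called, 2 (6.9%) were higher and 1 (3.45%) lower, under the 12.2% and 10.3% over all genes. The higher ones were the peptide transporter Tap1 (0.77 ± 0.15) and Stat2 (0.66 ± 0.15).

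Lipid and sterol metabolism showed more genes on the higher side. Of 29 PPAR targets and fatty acid oxidation genes Cpt1a rose, 10 were higher and 2 lower, with a median of 0.04. Acadm, a dehydrogenase of medium-chain acyl chains, was higher by 0.95, and Plin2, a coat protein of lipid droplets, by 0.81. Of 23 cholesterol genes 1 rose and none fell, 12 were higher and 2 lower, with a median of 0.30. Fdps, the farnesyl diphosphate synthase, had 6.72, 6.73 and 6.25 on the Ctrl4h arrays and 7.72, 7.94 and 7.28 on the VPA4h arrays, a rise of 1.09 ± 0.15 (adjusted p = 6.67e-05), and was under 2-fold at 0.93 without Ctrl4h replicate 3 and 0.94 without VPA4h replicate 2. Between arrays of the same number Fdps changed by 1, 1.22 and 1.03. Hsd17b7, Sc5d and Msmo1, enzymes of later steps, were higher by 0.96, 0.93 and 0.80. The 2 lower genes were regulators, Srebf1 at -0.74 and Insig1 at -0.59, while Srebf2 was higher by 0.35. Of 19 retinoid genes Rara, the retinoic acid receptor alpha, rose, with 6.67, 6.69 and 6.85 on the Ctrl4h arrays and 7.77, 7.97 and 7.99 on the VPA4h arrays and a difference of 1.17 ± 0.10 (adjusted p = 5.52e-07). Lrat, which esterifies retinol for storage in HSCs, was higher at 0.79 ± 0.20, and Rarb, a direct target of retinoic acid, was lower by 0.78. In that list 6 were higher and 3 lower.

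Signalling pathways differed in the side on which their genes lay. Of 22 Notch and Hedgehog genes 3 rose and none fell, 7 were higher and 1 lower, with a median of 0.16. Ptch1, the Hedgehog receptor and itself a target of the pathway, had 7.21, 7.06 and 7.06 on the Ctrl4h arrays and 8.48, 8.49 and 8.57 on the VPA4h arrays, a rise of 1.40 ± 0.08 (adjusted p = 2.16e-08). Notch1 had 9.43, 8.88 and 9.32 on the Ctrl4h arrays and 10.73, 10.13 and 10.55 on the VPA4h arrays, a rise of 1.26 ± 0.15 (adjusted p = 1.75e-05), and Hey2, a repressor that Notch induces, rose by 1.23 ± 0.10 from a low level. In all 3 the groups did not overlap. Of 31 Wnt genes Fzd4, a Frizzled receptor, rose by 1.24 ± 0.08 (adjusted p = 8.24e-08), 10 were higher and none lower. Among the 10 were the feedback inhibitors Nkd1 (0.87) and Axin2 (0.49), the factors Tcf7l1 (0.85) and Tcf7l2 (0.62) and the receptor Fzd7 (0.68).

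Of 40 TGF-beta and BMP genes 1 fell, Tgfb2, one of the ligands, with a difference of -1.01 ± 0.16 (adjusted p = 0.000153). It was at -0.87 without Ctrl4h replicate 1, -0.96 without VPA4h replicate 2 and -0.99 without VPA4h replicate 3. The ligands Tgfb3 and Inhba were lower by 0.87 and 0.80 and Bmp4 was higher by 0.93. In all 7 genes (17.5%) were higher and 7 (17.5%) lower, beside 12.2% and 10.3% over all genes. Of 37 growth factors and receptors none was called, 2 (5.41%) were higher and 8 (21.6%) lower. The largest differences were in Fgf2 (-0.97 ± 0.18) and Vegfc (-0.95 ± 0.11), and the receptor Fgfr2 was higher by 0.89. Spry2, a feedback inhibitor of receptor tyrosine kinases, fell (-1.03 ± 0.10) among 17 MAPK feedback genes, of which 4 were higher and 3 lower, and was at -0.95 without Ctrl4h replicate 1 and -0.98 without VPA4h replicate 2. Of 22 immediate early factors none was called. Egr1 was higher at 0.97 ± 0.19, its group-mates Nr4a3 and Nr4a1 at 0.84 and 0.82, and Myc was lower. Of 13 Kruppel-like factors none was called, with Klf7 at -0.89 ± 0.13, Klf3 at -0.61 ± 0.13, 2 genes higher and 4 lower in all.

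Ankrd1 was the largest change among 23 YAP and TEAD targets, a list made after its value had been seen. Tgfb2 fell as well, Ajuba rose by 1.02 ± 0.09, and 2 genes were higher and 5 lower. Ajuba, which binds the upstream Lats kinases, was at 0.995 when centred on housekeeping genes, 0.98 without Ctrl4h replicate 1, 0.98 without Ctrl4h replicate 3 and 0.98 without VPA4h replicate 3. Of 20 plasminogen, coagulation and complement genes Thbd, the thrombin cofactor thrombomodulin, fell with a difference of -1.03 ± 0.24 (adjusted p = 0.00433). It was at -0.97 after another quantile normalisation, -0.90 without Ctrl4h replicate 3 and -0.71 without VPA4h replicate 1. The protease receptor Plaur and the tissue factor gene F3 were lower by 0.56 and 0.63, and none of the list was higher.

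Genes that mark the state of HSCs were examined as well. Acta2, which encodes the smooth muscle actin of myofibroblasts, had 10.35, 10.02 and 10.05 on the Ctrl4h arrays and 9.31, 9.02 and 9.43 on the VPA4h arrays, a difference of -0.89 ± 0.13 (adjusted p = 8.05e-05). It was lower without overlap but under 2-fold, and none of the 16 contractile genes was called, with Des, the intermediate filament desmin, higher at 0.47 ± 0.08. Of 26 collagens and cross-linking enzymes 1 fell, Col12a1, which had 7.95, 7.39 and 7.90 on the Ctrl4h arrays and 6.72, 6.30 and 6.86 on the VPA4h arrays and a difference of -1.12 ± 0.18 (adjusted p = 0.000251), and 5 were higher and 4 lower. Col12a1 was at -0.96 without VPA4h replicate 2, and its changes between arrays of the same number were -1.24, -1.09 and -1.04. Lox, the enzyme that cross-links collagen, was lower at -0.76 ± 0.20 and Col5a2 at -0.59 ± 0.14. The fibrillar collagen genes Col1a1 and Col3a1 were at 0.12 ± 0.18 and -0.18 ± 0.19, with adjusted p of 0.756 and 0.634. Of 20 metalloproteinases and inhibitors none was called, with Mmp13 at -0.81 ± 0.41 (adjusted p = 0.211), Adamts4 at 0.61 ± 0.11, and Timp1 at -0.18 ± 0.15. The changes of Mmp13 between arrays of the same number were -0.749, -0.747 and -0.923, and its adjusted p was 0.140 with the replicate number as a block over all groups and 0.00215 with it within each time point. Of 20 markers of quiescent HSCs none was called, 5 were higher and none lower, led by the peptide receptor Vipr1, with 8.59, 8.53 and 8.65 on the Ctrl4h arrays and 9.31, 9.49 and 9.43 on the VPA4h arrays and a difference of 0.82 ± 0.11 (adjusted p = 3.49e-05), and by Lrat.

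Of 26 stellate lineage and mesenchymal transcription factors 1 rose and 1 fell, while 9 were higher and 3 lower. Snai2, a repressor of epithelial genes, had 6.77, 6.64 and 6.28 on the Ctrl4h arrays and 7.71, 7.70 and 7.60 on the VPA4h arrays, a rise of 1.11 ± 0.14 (adjusted p = 1.99e-05), and was at 0.97 without Ctrl4h replicate 3. Runx1, a factor of blood and mesenchymal cells, had 8.30, 7.82 and 8.23 on the Ctrl4h arrays and 6.81, 6.80 and 7.08 on the VPA4h arrays, a difference of -1.22 ± 0.14 (adjusted p = 1.21e-05). Prrx1 and Tcf21, mesenchymal factors, were lower by 0.93 and 0.85, and Foxf1, Gata4 and Gata6 higher by 0.84, 0.60 and 0.44. Of 45 neuronal, synaptic and secretory granule genes, a class that deacetylase inhibitors often raise in other cells, 2 rose and none fell. These were Dpysl2, which regulates microtubules in axons (1.10 ± 0.11), and Mapt, which encodes the protein tau, with 6.81, 6.63 and 6.79 on the Ctrl4h arrays and 7.84, 7.88 and 7.76 on the VPA4h arrays and a rise of 1.08 ± 0.09 (adjusted p = 5.28e-07). The median of that list was -0.05, below 0 like that of all genes. By adjusted p alone 4 of the 45 (8.89%) were higher and none lower, beside 12.2% and 10.3% over all genes.

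Of 26 genes that the study itself discusses, none rose and 2 fell at 4 h, Col12a1 and Rcbtb2. Rcbtb2, a protein with BTB and RCC1 domains, had 6.49, 6.87 and 6.59 on the Ctrl4h arrays and 5.25, 5.27 and 5.70 on the VPA4h arrays. Its difference was -1.24 ± 0.13 (adjusted p = 2.99e-06). Since the study chose part of the 26 genes on these samples, their directions are not independent evidence. Others, such as Acta2 and Ntm, it took as known markers. Igfbp3, the binding protein of insulin-like growth factors, had 9.28, 8.96 and 8.81 on the Ctrl4h arrays and 8.97, 8.87 and 8.57 on the VPA4h arrays, a difference of -0.21 ± 0.21 (adjusted p = 0.602), and the groups overlapped. After 64 h the same difference was -3.68 (adjusted p = 1.36e-08). Besides it, Emilin1 at 0.25, Tmem204 at 0.08, Sort1 at 0.17, Plat at 0.15, Aplp1 at 0.05, Ntm at -0.08, Ptprn at -0.18, Uchl1 at -0.18, Col8a1 at -0.21, Steap4 at 0.08 and Mmp9 at 0.06 had an adjusted p above 0.05 at 4 h. Plxnc1 was higher at 0.58, and Bmp2 and Cyp7b1 were lower at -0.48 and -0.72, Bmp2 with an adjusted p of 0.0465, or 0.0510 with the replicate block over all groups. Among markers of other cells that are named by size alone, Cps1 (-0.16), G6pc (-0.33), Csf1r (-0.25), Ptprc (-0.24), Il7r (-0.22), Ms4a1 (0.20), Cd34 (0.25) and Sox9 (-0.24) had none with an adjusted p under 0.05, while G6pc had 0.0348 with replicates blocked within each time point.

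**Figure D4:**
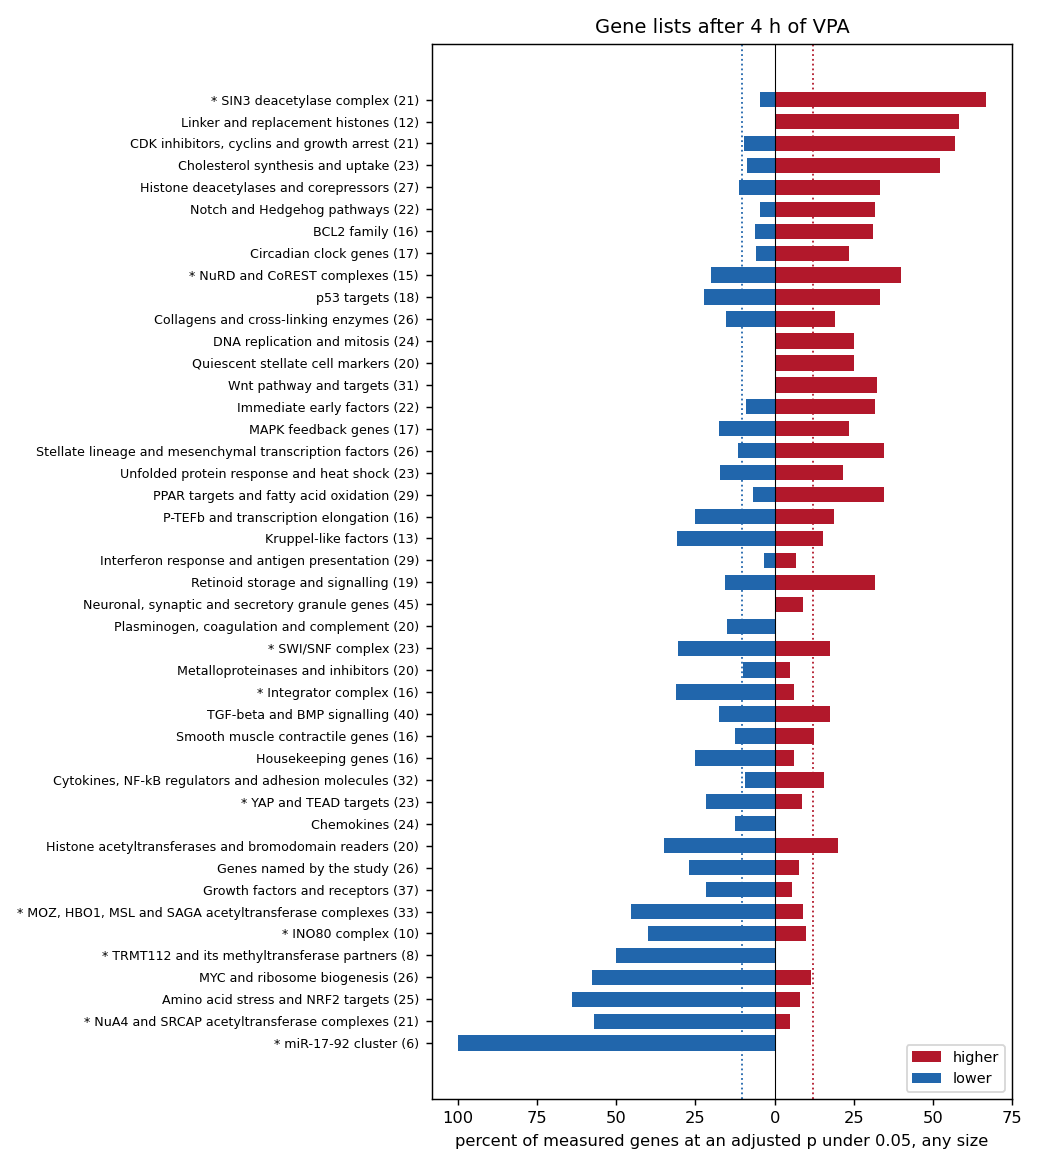
Share of the measured genes of each list that were higher (red, to the right) or lower (blue, to the left) in VPA4h by the adjusted p alone, as percent, ordered by the median change. The number of measured genes is in parentheses, a star marks lists made after their values had been seen, and dotted lines give the share over all genes, 12.2% higher and 10.3% lower. SIN3 stands at the top, and the amino acid stress, NuA4 and miR-17 cluster lists at the bottom.

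The 4 h response was then set beside the response after 64 h, VPA64h against Ctrl64h, which shares no array with it. At 64 h 163 probe sets (0.748%) rose and 244 (1.12%) fell, 1.87% in all. Of the 201 that rose at 4 h 13 rose again, which is 6.47% of the 4 h list and 7.98% of the 64 h list. Of the 129 that fell 13 fell again, 10.1% of the 4 h and 5.33% of the 64 h list, and none was called in opposite directions. Without the 2-fold limit 1042 probe sets were higher at both times, of 2600 at 4 h and 2650 at 64 h, and 760 were lower at both, of 2245 and 2464. The probe sets that rose at 4 h had a median change of 1.15 there and of 0.37 at 64 h (quartiles 0.14 to 0.61), and 167 of 201 kept the sign. Those that fell had medians of -1.16 and -0.45 (quartiles -0.72 to -0.15), and 111 of 129 kept the sign. A probe set chosen for a large value at 4 h tends to have a smaller one elsewhere, so these medians are a description.

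The genes called at both times included Nt5dc2 (1.84 at 4 h and 1.05 at 64 h), Sgtb (1.83 and 1.31), Strbp (1.63 and 1.19) and Mapt (1.08 and 1.18) among those that rose. Among those that fell were Il6 (-1.89 and -1.76), P2ry14 (-1.72 and -1.22), Plpp3 (-1.38 and -1.43), Herpud1 (-1.39 and -1.27), Lmcd1 (-1.42 and -1.63) and Rcbtb2 (-1.24 and -2.15). Other large changes at 4 h were small at 64 h. Jup was at 1.98 and -0.01, a difference between the times of -1.99 (limma interaction, adjusted p = 4.88e-07). Ankrd1 was at -2.02 and 0.53, a difference of 2.55 (adjusted p = 8.56e-06), and Npr3 at -1.70 and 0.56, a difference of 2.26 (adjusted p = 0.000467).

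Some replication genes were higher at 4 h and lower at 64 h. Chaf1b was at 1.65 and then -0.62, Mcm4 at 0.95 and -0.95, and Mcm6 at 0.92 and -0.96, with interaction values of -2.27, -1.90 and -1.89 (adjusted p = 1.51e-05, 3.09e-07 and 3.09e-07). Over the 24 DNA replication and mitosis genes the median was 0.09 at 4 h and -0.86 at 64 h, where 8 fell and none rose. The SIN3 median was 0.48 and then 0.24, that of NuA4 and SRCAP -0.56 and then -0.10, and that of the amino acid stress and NRF2 genes -0.48 and then 0.13. The neuronal and granule genes went the other way, with 2 rises at 4 h and 10 at 64 h. Over the whole table the VPA change at 64 h was above that at 4 h by the same limits in 180 probe sets (0.826%) and below it in 370 (1.70%).

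**Figure D5:**
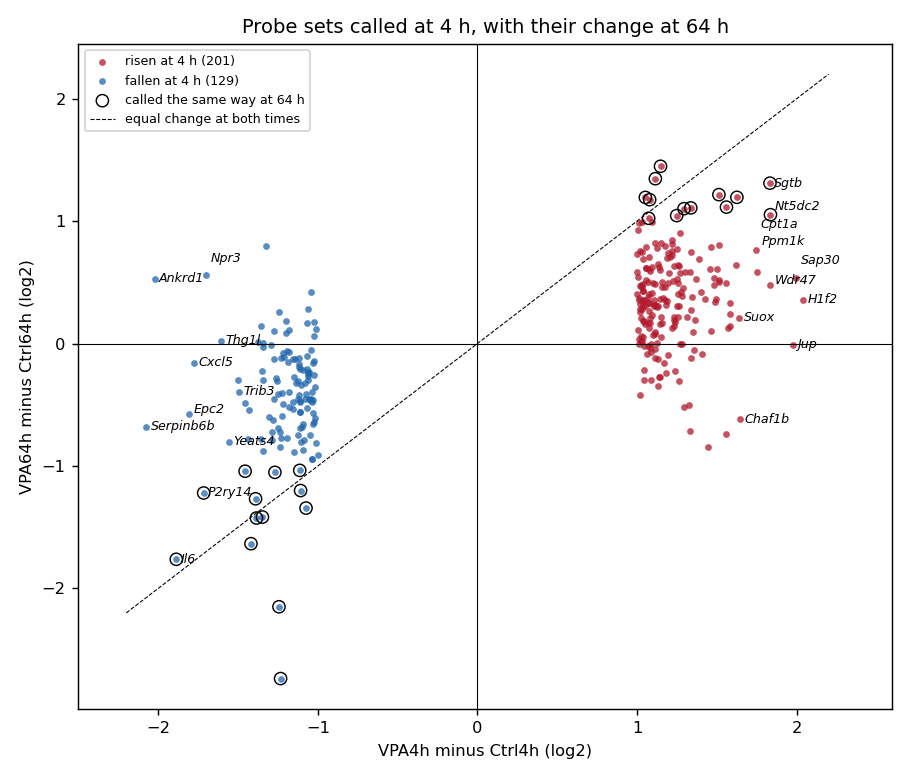
Each point is 1 of the 330 probe sets called at 4 h, with its change there (horizontal, log2) and its change after 64 h (vertical, log2). Rings mark probe sets called the same way at both times, 13 risen and 13 fallen, and the dashed line marks equal changes. Most points lie closer to 0 on the vertical than on the horizontal axis.

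The difference between the controls, Ctrl64h minus Ctrl4h on the log2 scale, is given side by side with these changes, because Ctrl4h enters both comparisons. From 4 h to 64 h of control culture Jup differed by 1.62, Cpt1a by 1.62, Chaf1b by 2.36, Elovl5 by 1.72 and Ppm1k by 1.80, while H1f2 differed by 0.34 and Sgtb by 0.15. Of the genes that fell with VPA, Cxcl5 differed by -3.36, Trib3 by -1.92 and Chac1 by -2.07 between the controls, and Ankrd1 by 0.40 and Npr3 by -0.04. Acta2, lower with VPA but not called, differed by 2.83. By the same limits 6.91% of all probe sets rose from Ctrl4h to Ctrl64h and 2.46% fell, 9.37% together.

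The promoters of the 2 largest rises and the 2 largest falls are shown, 250 bases before to 50 after the annotated start in RefSeq (GRCm38.p6), as examples of the windows in which base composition and motifs were counted. Capitals mark matches, on either strand, to the motifs searched. These were the TATA box as TATAAA, the GC box of the Sp factors as GGGCGG, the CAAT box of the NF-Y factor as CCAAT, the AP-1 site as TGACTCA, the cAMP response element as TGACGTCA and a short NF-kB consensus. None of these letter strings contains another. The H1f2 window is chr13:23738557-23738856 on the plus strand, that of Sap30 chr8:57487811-57488110 on the minus strand, that of Serpinb6b chr13:32965011-32965310 on the plus strand and that of Ankrd1 chr19:36119795-36120094 on the minus strand.
H1f2: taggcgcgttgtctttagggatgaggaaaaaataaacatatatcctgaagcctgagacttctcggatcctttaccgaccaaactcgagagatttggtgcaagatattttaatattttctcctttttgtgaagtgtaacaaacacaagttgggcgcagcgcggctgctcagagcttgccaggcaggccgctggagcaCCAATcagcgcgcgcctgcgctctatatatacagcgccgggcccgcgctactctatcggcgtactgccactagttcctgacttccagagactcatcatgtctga
Sap30: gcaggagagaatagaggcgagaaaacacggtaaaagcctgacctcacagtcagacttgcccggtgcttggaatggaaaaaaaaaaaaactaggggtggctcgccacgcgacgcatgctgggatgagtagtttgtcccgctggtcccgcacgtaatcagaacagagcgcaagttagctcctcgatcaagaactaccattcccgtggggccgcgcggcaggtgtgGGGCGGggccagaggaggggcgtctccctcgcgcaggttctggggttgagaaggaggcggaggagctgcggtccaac
Serpinb6b: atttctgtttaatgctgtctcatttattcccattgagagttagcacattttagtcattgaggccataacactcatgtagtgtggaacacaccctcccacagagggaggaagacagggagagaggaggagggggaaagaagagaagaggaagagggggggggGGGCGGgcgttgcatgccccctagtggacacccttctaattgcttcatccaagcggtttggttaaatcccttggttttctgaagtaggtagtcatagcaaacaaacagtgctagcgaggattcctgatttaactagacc
Ankrd1: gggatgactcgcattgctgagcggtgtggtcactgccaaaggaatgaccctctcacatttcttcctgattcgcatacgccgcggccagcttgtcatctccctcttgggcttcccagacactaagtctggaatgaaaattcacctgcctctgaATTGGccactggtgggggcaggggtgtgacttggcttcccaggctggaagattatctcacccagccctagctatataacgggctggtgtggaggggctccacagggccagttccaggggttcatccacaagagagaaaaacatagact

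In these windows H1f2 and Ankrd1 hold 1 CCAAT match each and Sap30 and Serpinb6b 1 GC box each, and the other motifs have no match. CpG pairs number 19 and 22 in H1f2 and Sap30 against 4 and 7 in Serpinb6b and Ankrd1. Over all called genes, a promoter could be matched for 158 of 194 risen symbols (81.4%) and 100 of 125 fallen ones (80%). For comparison, 9030 of the 11292 tested symbols with a mean log2 value of at least 6 had one (80%), and 15563 of all 19938 (78.1%). The median GC content was 63.3% in the risen and 58.3% in the fallen genes, beside 61.3% at a mean of at least 6 and 57.7% over all. The median number of CpG pairs was 22 and 18.5, beside 21 and 15.

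The GC box was found in 79.1% of promoters of risen genes, in 55% of those of fallen genes, in 65.9% of those with a mean of at least 6 and in 49.9% of all. CCAAT was in 49.4%, 39%, 37.9% and 38.3%. TATAAA was in 4.43% of the risen and 14% of the fallen genes, beside 7.04% and 12.1%. The AP-1 site was in 3.16% and 4%, beside 3.51% and 4.52%, the cAMP response element in 2.53% and 7%, beside 3.26% and 2.5%, and the NF-kB site in 1.27% and 4%, beside 1.34% and 1.40%. These shares are matches of letters in a fixed window, given without a test.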

How the data were processed

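RNA of 14 cultures of mouse HSCs was measured on Affymetrix Mouse Gene 1.0 ST arrays, 1 array per culture. The deposited table holds log2 values that the authors made by RMA. The study's methods name GeneSpring GX and the submitters' processing notes Affymetrix Expression Console for this step. The number of arrays limits the precision.

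A single limma fit took in all 5 groups (limma 3.58.1 under R 4.3.3, lmFit followed by eBayes, with 9 residual and 6.52 prior degrees of freedom). Its two-sided p-values were corrected by Benjamini-Hochberg across the 23410 probe sets with at least 1 symbol. Calls needed a 2-fold change beside an adjusted p under 0.05, the limits of the study's methods. Counts are over the 21789 probe sets with exactly 1 symbol, 21698 of which matched a gene identifier of GRCm38.p6. Of several probe sets of a gene, the brightest on average over the 14 arrays stands for it. Named are the 15 largest rises and falls among called genes with established symbols whose arrays did not overlap, all called members of each list up to 6 (or its 2 largest differences where none was called) and the genes the study discusses. Other list members given with a value were chosen after their values were seen. The members and the lists, 10 of which were made after the values were seen, were chosen with earlier results of these data known.

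Same-numbered arrays deviated together from their group means (r = 0.161, 0.279 and 0.139 for replicates 1, 2 and 3 at 4 h, and 0.163, 0.158 and 0.171 at 64 h), and the numbers were therefore taken to pair the samples, from the data and from the separate isolations that the study describes. The main fit has no term for the replicate number, so its SE, adjusted p and calls are those of an unpaired comparison. The 26 alternatives were other scalings, filters, limits, samples and fits, the replicate number as a block, and each array left out. The fits without 1 array are unpaired too. Leaving out 1 array of a pair therefore also lets differences between the isolations into the value.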

Additional observations from a re-analysis of the deposited data

Results flagged for a closer look

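For 63 of the named genes, 45 named by the rule and 18 named after their values were seen, the VPA change at 64 h differed from that at 4 h by at least 2-fold with a limma interaction p-value, adjusted over all tested probe sets, under 0.05. All values here are the change at 64 h minus the change at 4 h on the log2 scale. Both changes rest on 3 against 3 arrays, and the highest adjusted p was 0.0489, for Mir20a. The genes that rose or fell at 4 h were named for a large change there, and that change enters the difference. A smaller change at 64 h is therefore favoured by the choice. The study picked others, such as Igfbp3 and Uchl1, by their VPA change at 64 h, which favours a larger change there.

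Of the genes named by the rule that rose at 4 h, 17 had a smaller or opposite change at 64 h. The values were -2.27 for Chaf1b, -1.99 for Jup, -1.68 for H1f2, -1.47 for Nfkbie, -1.46 for Fzd4, -1.46 for Sap30, -1.44 for Arid4a, -1.44 for Ajuba, -1.44 for Slc9a3r1, -1.43 for Suox, -1.39 for Fdps, -1.36 for Wdr47, -1.34 for Elovl5, -1.25 for Bace1, -1.17 for Ppm1k, -1.16 for Snai2 and -1.09 for Hey2. The same held for 12 genes that fell at 4 h, with 2.55 for Ankrd1, 2.26 for Npr3, 1.63 for Thg1l, 1.62 for Cxcl5, 1.46 for Nqo1, 1.39 for Serpinb6b, 1.32 for Mir20a, 1.23 for Epc2, 1.14 for Ints7, 1.10 for Trib3, 1.05 for Asns and 1.02 for Thumpd3.

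The other 16 genes named by the rule were not called at 4 h. In Mcm4 (-1.90), Mcm6 (-1.89) and Des (-1.17) a higher value at 4 h turned into a lower one at 64 h. Lower at 64 h relative to 4 h were also Igfbp3 (-3.47), Tmem204 (-1.95), Col3a1 (-1.88), Emilin1 (-1.72) and Cyp7b1 (-1.70). Higher relative to 4 h were Uchl1 (2.26), Ptprn (2.12), Sort1 (2.07), Plat (2.0), Aplp1 (1.90), Ntm (1.61), Cd34 (1.47) and Bmp2 (1.43).

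Of the 18 genes named after their values were seen, Mir125b-1 fell at 4 h, and its difference was 1.29. The other 17 were not called at 4 h. Lower at 64 h relative to 4 h were Nkd1 (-1.41), Cdt1 (-1.34), Rrm1 (-1.31), Mcm7 (-1.26), Mcm2 (-1.22), Fgfr2 (-1.17), Hat1 (-1.13), Fzd7 (-1.10), Ccnd3 (-1.07), Hdac5 (-1.06), Ccne1 (-1.05), Bmp4 (-1.04), Cdkn2c (-1.03) and Sc5d (-1.01). Higher relative to 4 h were Inhba (1.596), F3 (1.20) and Mir19b-1 (1.01).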

How the results depend on the processing

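Counts of calls moved by more than 1.5 times under other fold limits alone. At 1.5-fold 994 probe sets rose and 702 fell at 4 h, 743 and 797 at 64 h, and 892 were higher and 1174 lower in the difference of the changes, with 189 risen and 123 fallen at both times. Without a fold limit these counts were 2600 and 2245, 2650 and 2464, 1642 and 1845, and 1042 and 760. Leaving out 1 array at a time gave 195 to 219 risen and 113 to 175 fallen probe sets at 4 h, the fewest and the most falls without Ctrl4h replicate 1 and Ctrl4h replicate 3. It gave 146 to 197 and 233 to 254 at 64 h, 156 to 215 higher and 358 to 391 lower in the difference, and 11 to 17 risen and 12 to 19 fallen at both times. Fitted with the replicate block, over all groups or within each time point (the latter chosen after seeing the data), 201 rose and 129 fell at 4 h, and all 330 calls were shared with the fit without the block. By adjusted p alone 2690 were higher and 2303 lower with the block over all groups and 2632 and 2285 within each time point, which shared 4749 and 4572 of 4845. The 6 arrays of the comparison alone and the methods' analysis of variance each shared 328 of the 330 calls and give no value for the difference between the times. In these fits and those with the block, the 4 h log2 values are those of the main fit. A call could therefore change there through the adjusted p alone, and most of this sharing is built in. Centring on housekeeping genes moved the median of all genes by -0.025 at 4 h and -0.078 at 64 h, and rises made up 55.4% of calls then, 54.7% after another quantile normalisation and 60.9% as reported. Of 75 named called genes 56 kept their call in every alternative that tested them and 19 lost it in at least 1. Of the 26 alternatives, the limit of a mean value of at least 6 left out 6 of the 75. Values changed sign in 8 genes that were not called, each on leaving out 1 array. Over the fits without 1 array, Cxcl2 ranged from -0.38 to 0.69, Col1a1 from -0.092 to 0.33, Tmem204 from -0.0093 to 0.14, Steap4 from -0.00815 to 0.15, Mmp9 from -0.018 to 0.14, Aplp1 from -0.11 to 0.18, Ntm from -0.18 to 0.056 and Cxcl1 from -0.46 to 0.16. These fits are unpaired and break a pair. Between arrays of the same number the changes kept 1 sign for Cxcl2, Cxcl1 and Col1a1 (0.0283, 0.186 and 0.134 for Col1a1). For the others of the 8 they differed in sign. The cause of the sign changes was not tested.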
